A study of Homo sapiens with 6 samples.

Results

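The genes described here set the pace of the G1 phase of the cell cycle. They are the D cyclins CCND1, CCND2 and CCND3, the kinases CDK4 and CDK6 that the D cyclins switch on, the CIP/KIP inhibitors CDKN1A (p21) and CDKN1B (p27), and the INK4 inhibitors CDKN2A (p16, and ARF from another reading frame), CDKN2B (p15) and CDKN2C (p18). They were chosen by name, and all 10 were found among the 58051 Ensembl genes of the deposited table. The levels came from RNA-seq of 3 libraries of cells given piR-36249 mimics and 3 libraries of cells given the matching scramble, all labelled NTera-2 (NT2), an established line of embryonal carcinoma, a germ cell tumour of the testis. piR-36249 is a piRNA, a class of small RNA known mainly from germ cells, and a mimic is a synthetic copy brought into the cells. The labels disagree on the treatment: mimics are named in the titles, and a knockdown is named in the genotype field and the design text. The groups follow the titles. The sources used here state neither dose nor time. No label says that replicates are independent cultures, so each p-value covers just the scatter among these 6 libraries, which may be technical.

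In G1, mitogen signals raise D cyclins, which bind CDK4 or CDK6, and the active kinases phosphorylate the retinoblastoma protein and release E2F factors that turn on genes of DNA synthesis. INK4 proteins bind CDK4 and CDK6 directly and keep D cyclins off. CIP/KIP proteins block CDK2 complexes, and they also help D cyclins assemble with their kinases.

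Depth, recovered from the FPKM steps, was 48.0 to 62.7 M reads per library (M, 1e6 reads), and log2 values correlated at 0.994 to 0.996 within groups and 0.985 to 0.988 between groups. Of 8 defining markers of embryonal carcinoma cells all 8 were under 0.5 FPKM, and 5 of them, among them NANOG and SOX2, were listed at 0 in all 6 libraries, so the defining markers of the labelled cell type were at or near 0. Of 8 endothelial markers 6 were above 1 FPKM in all libraries, and the sum of all 8 was 403 to 421 FPKM in mimic libraries and 343 to 351 FPKM in scramble libraries. KDR and VWF stayed below 1 FPKM, at 0.040 and 0.525 FPKM at most in any library. In that list 5 of the 6 tested genes rose with mimic and none fell, where 18.7% of all tested genes were called higher. The part of this shift in the results below was not tested. In bulk RNA, fewer cells of a type or phase and less RNA per cell cannot be told apart. None of 6 blood markers and none of 6 fibroblast markers reached 1 FPKM in all libraries, and of 6 epithelial markers KRT8 and KRT18 did.

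With mimic, CCND1 and CDK4 fell, CDK6 and CDKN1A rose, and CCND3, CDKN1B and CDKN2C were not called. CCND2, CDKN2A and CDKN2B were at or near 0 in both groups. Calls are those of limma on log2(FPKM + 1) at an adjusted p of 0.05, over the 12912 genes that averaged 0.5 FPKM or more. The 7 members tested were each above 1 FPKM in all 6 libraries. Of these 7, 4 were called (57.1%), 2 higher and 2 lower, where 35.5% of all tested genes were called, 18.7% higher and 16.8% lower. These 4 were also the members whose groups did not overlap in FPKM, as was the case for 49.2% of all tested genes. The median log2 fold change of the 7 was 0.08, beside 0.0025 over all tested genes. None of the 10 is in the authors' deposited table of 401 changed genes, which holds 1.32% of the genes above 0 and lists only absolute log2 fold changes of at least 1.

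**Figure D1:**
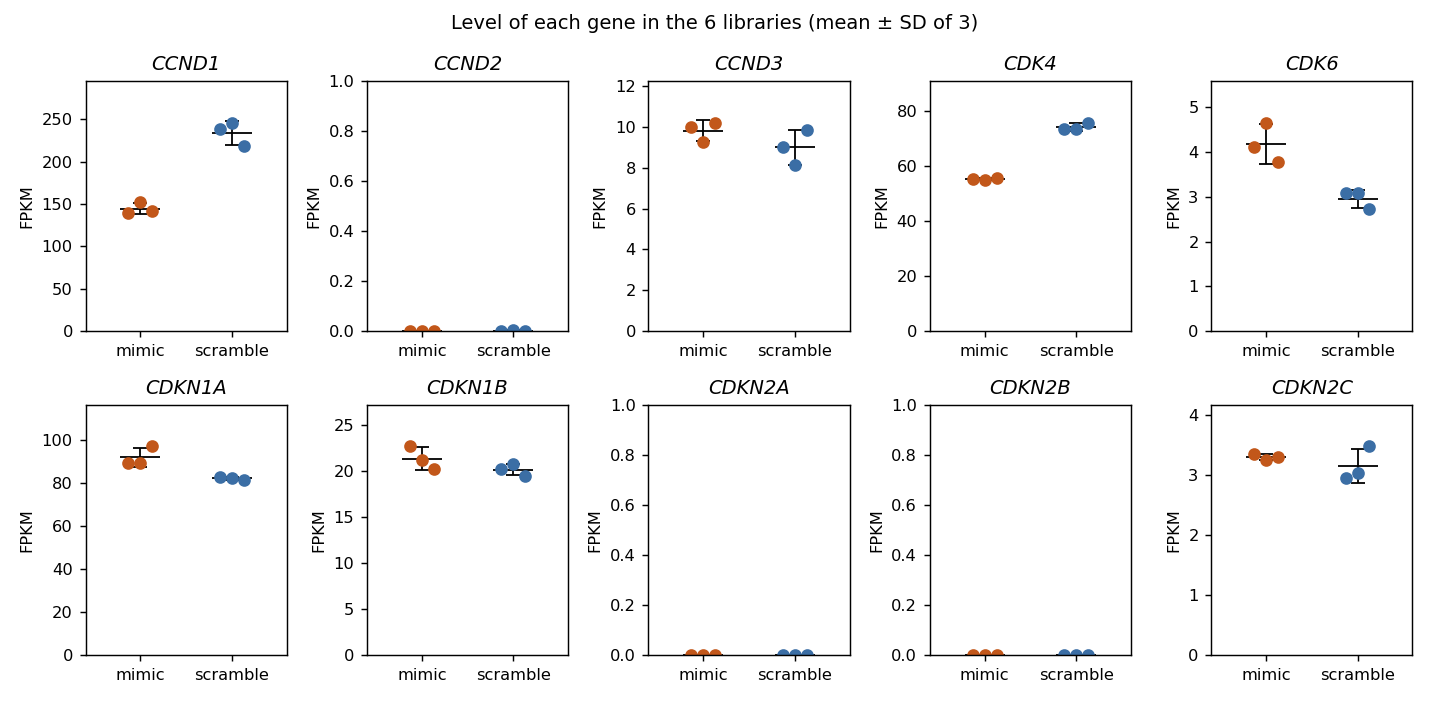
FPKM (linear axes from 0, a separate scale for each gene) of the 10 genes in the 3 mimic libraries (orange, left) and the 3 scramble libraries (blue, right); points are libraries, and the black line and bars are mean and SD. CCND1 and CDK4 lie lower and CDK6 and CDKN1A lie higher in all 3 mimic libraries, and CCND2, CDKN2A and CDKN2B lie at or near 0.

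CCND1, the main D cyclin of these cells, fell with mimic and stayed the most abundant of the 10 genes in both groups. It measured 139.6, 152 and 142 FPKM in mimic libraries 1 to 3, against 238, 246 and 218 FPKM in scramble libraries 1 to 3. The highest mimic library lay below the lowest scramble library. The means were 145 ± 6.51 FPKM with mimic and 234 ± 14.3 FPKM with scramble (SD, n = 3 each), a ratio of 0.618. On the log2(FPKM + 1) scale the fold change was -0.69 (SE 0.056, limma adjusted p = 0.00012), which placed CCND1 153rd from the lowest of the 12912 tested genes. The gene (ENSG00000110092, plus strand, GRCh38, chromosome 11, 69641087 to 69654474) shares 10.3% of its exon bases with LTO1 on the opposite strand. LTO1 itself measured 3.42 ± 0.144 FPKM with mimic and 3.48 ± 0.218 FPKM with scramble (SD, n = 3 each) and was not called (limma adjusted p = 0.825).

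CCND3, the D cyclin best known from blood cells, was far less abundant and was not called. It measured 9.999, 9.26 and 10.2 FPKM in mimic libraries and 9.02, 8.14 and 9.84 FPKM in scramble libraries, so the groups overlapped. The log2 fold change was 0.12 with a 95% interval of -0.04 to 0.28 (limma adjusted p = 0.227). The gene (ENSG00000112576) lies on chromosome 6, 41934933 to 42050357, minus strand.

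CCND2, the D cyclin best known from the gonads, was at or near 0. The recovered counts were 0 reads in all 3 mimic libraries and 0, 2 and 0 reads in the scramble libraries. At these depths 3 reads over its exons are worth 0.00668 to 0.00873 FPKM. That is the limit a count of 0 allows, for counting error only, and it does not cover scramble library 2, which had 2 reads. The limit uses all 7157 exon bases of CCND2, of which 86.2% are shared with no other gene. Reads on shared bases may be lost, so it may be too low. The D cyclin pool was therefore CCND1 with a little CCND3, and its summed level was 154 ± 6.05 FPKM with mimic and 243 ± 13.5 FPKM with scramble (SD, n = 3 each). CCND3 made up 6.68%, 5.74% and 6.70% of the pool in mimic libraries, against 3.65%, 3.20% and 4.32% in scramble libraries. Each mimic library thus had a larger CCND3 share than any scramble library, beside a CCND3 level that was not called.

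The kinases moved in opposite directions. CDK4 fell to 55.2, 54.9 and 55.6 FPKM in mimic libraries, against 73.2, 73.3 and 75.6 FPKM in scramble libraries. The groups were well apart and the libraries within each were close together. The ratio of the means was 0.746, and the log2 fold change was -0.42 (SE 0.034, limma adjusted p = 0.00012). CDK4 (ENSG00000135446, minus strand, GRCh38, chromosome 12, 57747727 to 57756013) shares 43.2% of its exon bases with TSPAN31 on the opposite strand, and the sources used here do not state whether counting used strand, so its level per length is uncertain. TSPAN31 measured 3.21 ± 0.149 FPKM with mimic and 3.61 ± 0.161 FPKM with scramble (SD, n = 3 each) and was not called (limma adjusted p = 0.097).

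CDK6, which pairs with the same cyclins, rose with mimic, at a much lower level than CDK4. It measured 4.11, 4.66 and 3.78 FPKM in mimic libraries and 3.08, 3.08 and 2.73 FPKM in scramble libraries. All 3 mimic libraries were above all 3 scramble libraries, although the mimic libraries spread more widely. The ratio of the means was 1.41 and the log2 fold change 0.38 (SE 0.074, limma adjusted p = 0.0059). CDK6 (ENSG00000105810) lies on chromosome 7, 92604921 to 92836594, minus strand. Its share of the summed CDK4 and CDK6 level was 7.04 ± 0.729% with mimic and 3.85 ± 0.316% with scramble (SD, n = 3 each). By listed FPKM CDK4 remained the dominant kinase in every library, 11.8 to 14.7 times the level of CDK6 in mimic libraries and 23.8 to 27.7 times in scramble libraries. The size of these ratios is uncertain, as the level per length of CDK4 is. The summed level of both kinases was 59.4 ± 0.163 FPKM with mimic and 77.0 ± 1.17 FPKM with scramble (SD, n = 3 each).

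**Figure D2:**
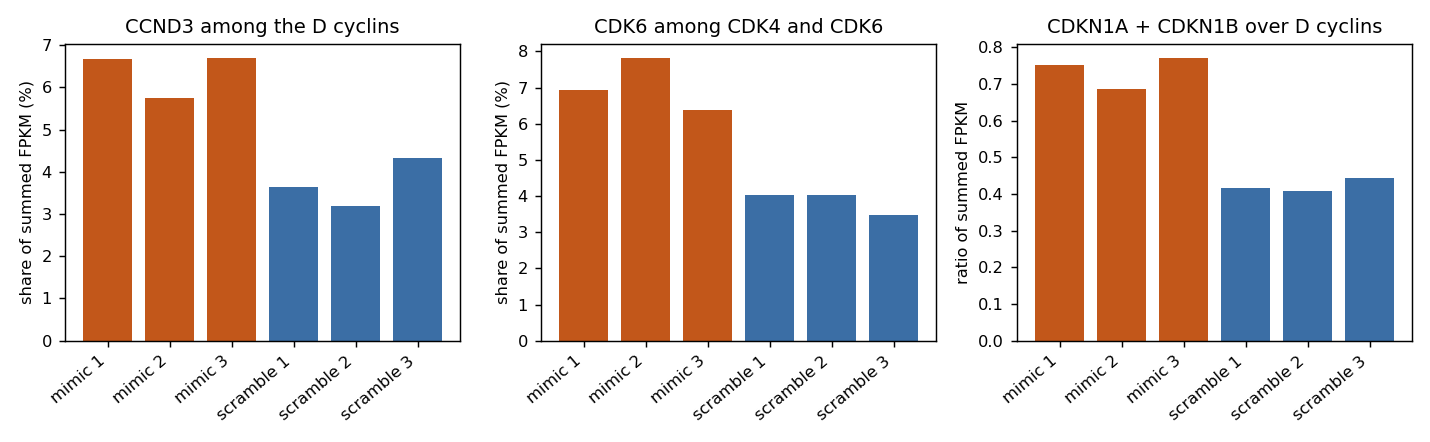
Bars give, for each of the 6 libraries (mimic orange, scramble blue), the CCND3 share of summed D cyclin FPKM in percent, the CDK6 share of summed CDK4 and CDK6 FPKM in percent, and the ratio of summed CDKN1A and CDKN1B FPKM to summed D cyclin FPKM. All 3 measures are higher in each mimic library than in any scramble library; the ratio is 0.686 to 0.770 with mimic and 0.407 to 0.443 with scramble.

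The starts of the kinase genes are shown because CDK4 fell and CDK6 rose. Each line gives the 250 bases before the start site, 5′ to 3′ on the gene's strand, from RefSeq on GRCh38.p14; capitals mark the E-box CACGTG, a motif bound by MYC and related factors, and the GC box GGGCGG or its complement CCGCCC, bound by SP1 and related factors. The CDK4 window is chr12:57752311-57752560 and the CDK6 window, the first of 2 in the table, is chr7:92836574-92836823, both on the minus strand.
CDK4: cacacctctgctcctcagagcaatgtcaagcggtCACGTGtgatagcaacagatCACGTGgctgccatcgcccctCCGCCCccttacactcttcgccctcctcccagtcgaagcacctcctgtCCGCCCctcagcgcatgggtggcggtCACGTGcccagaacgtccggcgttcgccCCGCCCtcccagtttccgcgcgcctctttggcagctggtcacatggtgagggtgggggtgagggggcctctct
CDK6: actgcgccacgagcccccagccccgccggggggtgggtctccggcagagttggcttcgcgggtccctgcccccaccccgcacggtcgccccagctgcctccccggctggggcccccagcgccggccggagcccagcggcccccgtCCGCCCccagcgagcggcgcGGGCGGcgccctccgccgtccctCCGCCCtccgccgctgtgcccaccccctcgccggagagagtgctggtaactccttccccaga
The CDK4 window held 3 E-boxes and 3 GC boxes, and this CDK6 window held 0 E-boxes and 3 GC boxes; the other CDK6 window held neither motif. No 2 matches overlapped in these windows. Of 35116 windows of this length in the table, read on both strands, 6.34% held at least 1 E-box, 0.0797% held 3 or more, 42.6% held at least 1 GC box, and 13.9% held 3 or more. The E2F motif, searched as TTTGGCGC, TTTCCCGC, TTTCGCGC and TTTGCCGC on both strands, was in 2.79% of all windows and in neither of these. A match describes letters in a window and is not a measured binding site. Of the 10 genes 8 had windows in the table, and CCND1 and CCND2 had none. E-boxes were also found before CDKN2C, which was not called. A link between motifs and the direction of change was not tested.

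Of the CIP/KIP inhibitors, CDKN1A rose slightly and CDKN1B was not called. CDKN1A, an inhibitor of cyclin E and cyclin A complexes, was second to CCND1 among the 10 genes by listed FPKM in both groups. The level per length of CDK4, the next below, is uncertain, as given above. CDKN1A measured 89.6, 89.5 and 97.2 FPKM in mimic libraries and 82.9, 82.7 and 81.5 FPKM in scramble libraries. Every mimic library was above every scramble library, and mimic library 3 was the highest. The ratio of the means was 1.12 and the log2 fold change 0.16 (SE 0.043, limma adjusted p = 0.024). The call did not hold without mimic replicate 3 (log2 0.12, limma adjusted p = 0.073), scramble replicate 1 (0.066), scramble replicate 2 (0.059) or scramble replicate 3 (0.053). CDKN1A (ENSG00000124762) lies on chromosome 6, 36676460 to 36687339, plus strand.

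CDKN1B, the inhibitor that accumulates in resting cells, measured 22.7, 21.2 and 20.2 FPKM in mimic libraries and 20.2, 20.8 and 19.5 FPKM in scramble libraries. The groups overlapped, and the log2 fold change was 0.08 with a 95% interval of -0.04 to 0.20 (limma adjusted p = 0.267). CDKN1B (ENSG00000111276) lies on chromosome 12, 12715058 to 12722371, plus strand. Summed over both inhibitors the level was 113 ± 3.52 FPKM with mimic and 102 ± 1.29 FPKM with scramble, and its ratio to summed D cyclins was 0.735 ± 0.0438 with mimic and 0.423 ± 0.0186 with scramble (SD, n = 3 each). These are ratios of RNA levels.

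**Figure D3:**
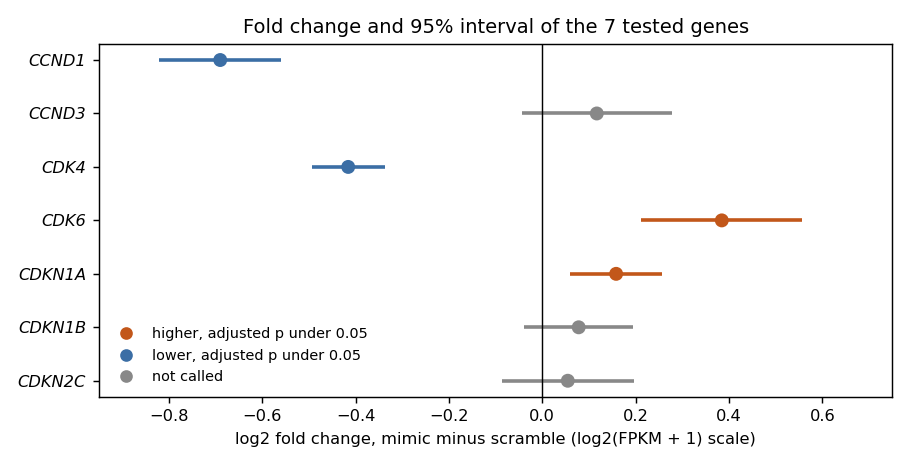
Log2 fold change, mimic minus scramble on the log2(FPKM + 1) scale, of the 7 tested genes (points) with 95% intervals (lines); colours give the limma call at an adjusted p of 0.05. The intervals of CCND1 and CDK4 lie below 0, those of CDK6 and CDKN1A above 0, and those of CCND3, CDKN1B and CDKN2C include 0.

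Of the INK4 inhibitors CDKN2A, CDKN2B and CDKN2C, reads were found for CDKN2C alone. CDKN2C, a p18 protein that acts on CDK4 and CDK6, measured 3.36, 3.26 and 3.30 FPKM in mimic libraries and 2.95, 3.03 and 3.47 FPKM in scramble libraries. The groups overlapped, with scramble library 3 the highest of all 6. Its log2 fold change was 0.05 with a 95% interval of -0.09 to 0.20 (limma adjusted p = 0.520). CDKN2C (ENSG00000123080) lies on chromosome 1, 50960745 to 50974633, plus strand.

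CDKN2A and CDKN2B had 0 reads in each of the 3 mimic and 3 scramble libraries. For CDKN2A (ENSG00000147889, minus strand, GRCh38, chromosome 9, 21967753 to 21995301) a count of 0 allows up to 0.0110 to 0.0144 FPKM, and for CDKN2B (ENSG00000147883, minus strand, chromosome 9, 22002903 to 22009363) up to 0.0118 to 0.0154 FPKM. No other gene's exon covers CDKN2B, and 92.1% of the exon bases of CDKN2A are shared with no other gene. The table sums all transcripts of a gene, and the p16 and ARF transcripts of CDKN2A were both without reads.

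Genes next to these inhibitors had few or no reads as well. CDKN2B-AS1, the antisense RNA that runs across CDKN2B, also had 0 reads in all 6 libraries. MTAP, a housekeeping enzyme of methionine salvage next to CDKN2A, had 1, 2 and 1 reads in mimic libraries and 2, 2 and 1 reads in scramble libraries, over 14617 exon bases. The stretch from the start of MTAP to the end of CDKN2B-AS1 (chromosome 9, 21802543 to 22121097, 318.6 kb) holds 14 genes. Of these, 12 had 0 reads in all libraries, and the others were MTAP and the pseudogene TUBB8P1. A level of 0 in all libraries was common, found for 27635 of the 58051 Ensembl genes. The 12 include the pseudogenes UBA52P6 and ERVFRD-3, antisense RNAs, and small RNA genes of 144 and 150 exon bases. The count of 12 alone therefore does not set this stretch apart. All 14 together had 3, 2 and 2 reads in mimic libraries and 8, 2 and 5 reads in scramble libraries. This stretch was set after the values were seen.

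Farther out on both sides, genes with reads were found. DMRTA1, a transcription factor gene on the far side of CDKN2B-AS1, had 186, 122 and 130 reads in mimic libraries and 199, 181 and 152 reads in scramble libraries, and was not called (limma adjusted p = 0.466). KLHL9, an adaptor of a ubiquitin ligase on the MTAP side, was at 3.75 ± 0.326 FPKM with mimic and 3.57 ± 0.139 FPKM with scramble (SD, n = 3 each), and was not called (limma adjusted p = 0.521). ELAVL2, an RNA-binding protein gene farther out, was at 0.546 ± 0.0596 FPKM with mimic and 0.486 ± 0.0848 FPKM with scramble, and was not called (limma adjusted p = 0.577). MIR31HG, the host RNA of miR-31, which overlaps IFNE, fell to 36, 68 and 24 reads in mimic libraries, against 130, 98 and 108 reads in scramble libraries (log2 fold change -0.86, SE 0.162, limma adjusted p = 0.0053); it was picked after its values were seen. The cause of the low reads around CDKN2A was not tested.

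**Figure D4:**
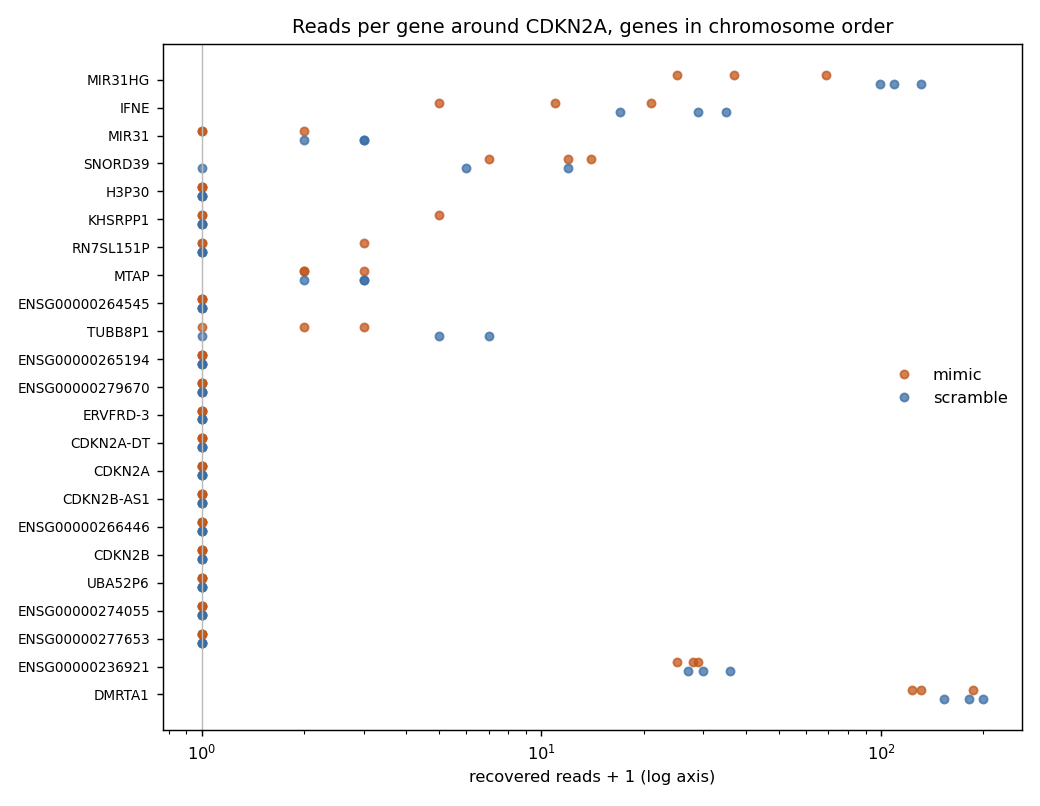
Recovered reads plus 1 (log axis) of the 23 genes of the table within 500 kb of CDKN2A, from top to bottom in chromosome order, in the 3 mimic libraries (orange, upper points) and the 3 scramble libraries (blue, lower points). From the row after TUBB8P1 down to the last row before ENSG00000236921 all points lie at 0 reads, and MIR31HG and DMRTA1 on the flanks have up to 130 and 199 reads.

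Ordered by listed FPKM, the genes ran CCND1, CDKN1A, CDK4, CDKN1B and CCND3 from high to low in both groups, and no neighbours in that run overlapped in range within a group. Below them CDK6 lay above CDKN2C in all mimic libraries, while in scramble libraries CDKN2C (2.95 to 3.47 FPKM) and CDK6 (2.73 to 3.08 FPKM) overlapped. CCND2, CDKN2A and CDKN2B could not be ranked. The place of CDK4 in the order is uncertain, as its level per length is.

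For CCND1, CDK4 and CDKN1A the tested gene with the most similar profile over the 6 libraries was looked up by Pearson correlation of log2(FPKM + 1), as a description among 11143 candidates. The closest to CCND1 was ANO6, a membrane phospholipid scramblase (r = 0.9999), at 11.6 ± 0.698 FPKM with mimic and 23.2 ± 1.95 FPKM with scramble. The closest to CDK4 was RUVBL1, an ATPase of chromatin remodelling complexes (r = 0.9996), at 12.5 ± 0.131 FPKM with mimic and 22.5 ± 0.632 FPKM with scramble. For CDKN1A it was RELA, an NF-kB subunit (r = 0.999). The 6 libraries fall into 2 groups that differ in many genes, so such values are common: 798 candidates passed 0.95 for CCND1, 888 for CDK4 and 125 for CDKN1A.

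Around these genes, the rest of the G1 pathway moved in part. Of 54 listed genes 50 were tested, of which 7 rose, 15 fell and 28 were not called, a share of 44% called beside 35.5% of all tested genes. Single libraries moved these counts: 14 genes were called without mimic replicate 1 or without scramble replicate 1, and 3 rose without mimic replicate 1 or 2 and 4 without scramble replicate 1 or 3. Their median log2 fold change was -0.04.

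Among the other inhibitors, CDKN2D (p19, the fourth INK4 protein) fell to 9.89, 8.72 and 8.94 FPKM in mimic libraries, against 13.5, 13.1 and 13.1 FPKM in scramble libraries. The groups did not overlap, and the log2 fold change was -0.48 (SE 0.052, limma adjusted p = 0.00041). CDKN2D was the more abundant of the detected INK4 genes in every library. CDKN1C (p57) was at 0 in all mimic libraries and at 0.0586 FPKM at most in scramble libraries.

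Of 3 retinoblastoma family genes 1 rose, 1 fell and 1 was not called, a share of 66.7% called beside 35.5% of all tested genes. RB1, the main target of CDK4 and CDK6, measured 4.88 ± 0.322 FPKM with mimic and 3.99 ± 0.267 FPKM with scramble (SD, n = 3 each; log2 fold change 0.24, limma adjusted p = 0.022). RBL1 (p107) fell by 0.23 on the log2 scale at the edge of the threshold (limma adjusted p = 0.0498), and RBL2 (p130) was at 0.15 (limma adjusted p = 0.079), and was called with voom on recovered reads (log2 0.18, adjusted p = 0.047). RB1 missed the threshold when mimic replicate 1, mimic replicate 2 or scramble replicate 3 was left out (limma adjusted p up to 0.067), and RBL1 when mimic replicate 1 or 3 or scramble replicate 1 or 2 was (up to 0.150).

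Of 9 tested E2F and DP genes 2 rose, 2 fell and 5 were not called, a share of 44.4% called beside 35.5% of all tested genes. E2F7, a repressor that E2F activity itself induces, rose to 14.1, 15.7 and 14.6 FPKM in mimic libraries, against 10.2, 10.5 and 8.64 FPKM in scramble libraries (log2 fold change 0.56, SE 0.074, limma adjusted p = 0.0011). The activator E2F1 fell to 13.3, 12.4 and 13 FPKM in mimic libraries, against 17.1, 14.7 and 16.6 FPKM in scramble libraries (log2 fold change -0.30, limma adjusted p = 0.0068). TFDP2, a dimer partner of E2F factors, rose by 0.23 on the log2 scale (limma adjusted p = 0.017) and missed the threshold when mimic replicate 1, mimic replicate 2 or scramble replicate 1 was left out (limma adjusted p up to 0.064).

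In the list of E2F target genes 6 of 8 fell, none rose and 2 were not called, where 16.8% of all tested genes fell. The list holds genes of DNA synthesis only, and E2F7, given above as induced by E2F activity, rose. RRM2, a subunit of ribonucleotide reductase, was at 30.3, 30.5 and 29.3 FPKM in mimic libraries and 61.9, 60.3 and 59.7 FPKM in scramble libraries (log2 fold change -0.99, limma adjusted p = 1.0e-05). TYMS, which makes thymidylate, fell by 0.38 and the replication helicase subunit MCM2 by 0.23 on the log2 scale (limma adjusted p = 0.0013 and 0.0020). Of the exon bases of TYMS 53.4% are shared with no other gene, and of those of MCM2 76.4%. Strand use in counting is not stated, as given for CDK4. Over these 8 targets the median change was -0.20 on the log2 scale, beside 0.0025 over all tested genes.

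Of the 5 tested genes of cyclin E, cyclin A and CDK2, 1 was called, a share of 20% beside 35.5% of all tested genes. This was CDK2, the kinase that follows CDK4 and CDK6. It fell by 0.19 on the log2 scale (limma adjusted p = 0.0087), while CCNA2 (cyclin A) was at -0.10 (adjusted p = 0.060) and the CDK-activating phosphatase CDC25A at 0.13 (adjusted p = 0.081). Without scramble replicate 2 CDC25A was called higher (log2 0.17, limma adjusted p = 0.048). None of 4 genes of the CDK-activating kinase and its chaperone was called, where 35.5% of all tested genes were. CCNH was at -0.17, the kinase chaperone CDC37 at 0.07 and MNAT1 at -0.04. CCNH was called lower without scramble replicate 1 (log2 -0.23, limma adjusted p = 0.036), and CDC37 was called higher under quantile normalization (log2 0.14, limma adjusted p = 0.019). The ubiquitin ligase MDM2, at -0.02, and its partner MDM4, at -0.06, were not called (limma adjusted p = 0.796 and 0.588).

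Among 12 genes of ubiquitin ligases that destroy these proteins, 3 rose, 2 fell and 7 were not called. The share called was 41.7%, near the 35.5% of all tested genes. FBXW7, the receptor for cyclin E, rose to 2.37, 2.47 and 2.49 FPKM in mimic libraries, against 1.69, 1.81 and 1.72 FPKM in scramble libraries (log2 fold change 0.33, limma adjusted p = 0.0026). AMBRA1, the receptor for D cyclins, named after its values were seen, rose to 9.12, 10.4 and 10.4 FPKM in mimic libraries, against 8.58, 8.14 and 8.11 FPKM in scramble libraries (log2 fold change 0.24, limma adjusted p = 0.015), and missed the threshold without mimic replicate 3 (limma adjusted p = 0.057). DTL, the receptor for p21, fell by 0.28 and CKS1B, a cofactor in p27 breakdown, by 0.17 on the log2 scale (limma adjusted p = 0.0041 and 0.012).

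In the list of the MuvB core with B-MYB and FOXM1, which binds cell cycle promoters, 1 of 6 tested genes rose and 2 fell. The share called was 50%, beside 35.5% of all tested genes. RBBP4 fell by 0.21 and the transcription factor FOXM1, a substrate of CDK4 and CDK6, by 0.19 on the log2 scale, and LIN52 rose by 0.22 (limma adjusted p = 0.013, 0.028 and 0.044). FOXM1 lost its call without mimic replicate 1 or any single scramble library (limma adjusted p up to 0.086), RBBP4 without scramble replicate 1 (0.052), and LIN52 when mimic replicate 1 or 2 or scramble replicate 1 or 3 was left out (up to 0.137).

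**Figure D5:**
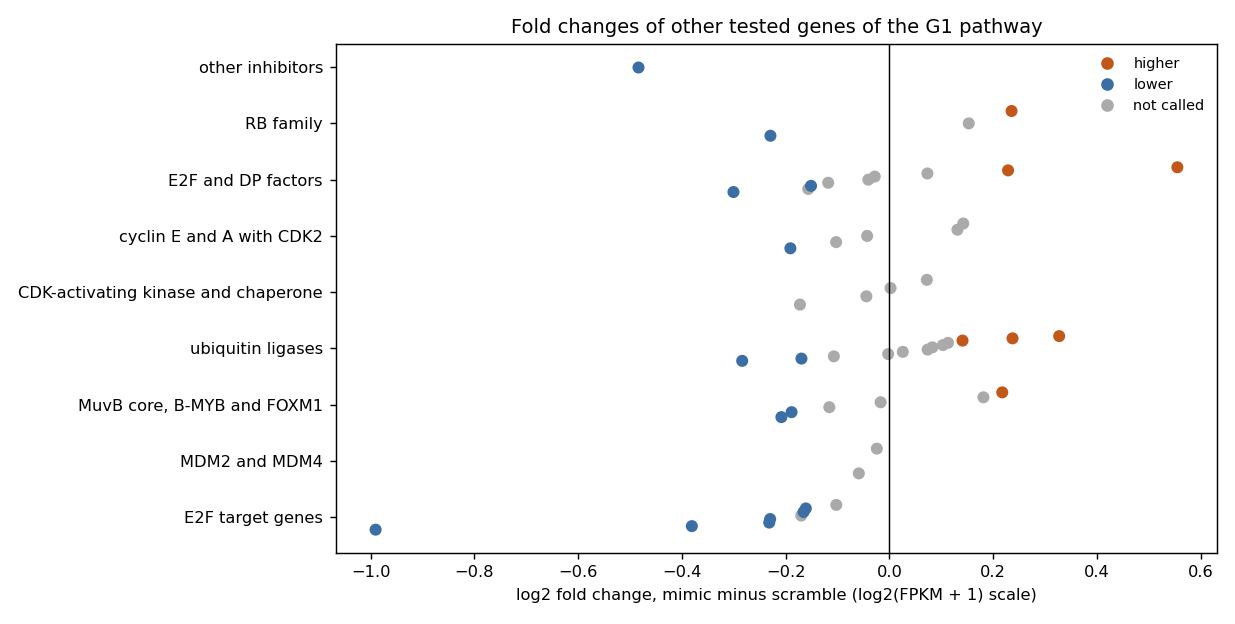
Log2 fold change, mimic minus scramble on the log2(FPKM + 1) scale, of 50 tested genes of the G1 pathway, 1 row per list; points are genes, coloured by the limma call at an adjusted p of 0.05. All 8 genes of the E2F target list lie below 0, 6 of them called, while the other lists with several called genes hold calls in both directions.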

How the data were processed

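RNA was isolated in TRIzol and libraries were made commercially, per the labels' protocols. The submitters' processing notes name HISAT2 2.1.0 on GRCh38, with Trimmomatic 0.39 and, for counting and testing, featureCounts 2.0.1 and DESeq2 1.26.0. The sources used here give no annotation, counting options or strand use. FPKM was deposited by the authors, a count scaled to gene length and depth, in which reads shared between genes may be lost. The authors' deposited comparison table, a filtered list, holds a mean normalized signal, log2 fold changes with standard errors, a test score and p-values, and was used only to look up the members.

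Names, positions and exon lengths came from GENCODE 29 on GRCh38 (57447 of 58051 identifiers matched). FPKM times exon length gave whole reads within 0.02 for at least 95.9% of values up to 30 reads. Groups were compared by limma 3.58.1 in R 4.3.3 (trended variance, no covariate) on log2(FPKM + 1), with Benjamini-Hochberg adjustment over the 12912 genes that averaged 0.5 FPKM or more; this scale understates changes of low genes. It was tested on simulated data. Named genes are all members, up to 3 genes of smallest p per pathway list, the neighbours of the INK4 genes and the most similar gene of each called member; some of these are not reported here and are left out of the lists and counts. Members, lists and tests were chosen with earlier results of these data known. Alternatives covered pseudocount, filter, scaling, variance model, replicate block, voom on recovered reads and leaving out each library. Intervals on reads cover counting error only.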

Additional observations from a re-analysis of the deposited data

How the results depend on the processing

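CCND1, CDK4 and CDK6 kept their direction and their call under every alternative that kept them in the test (log2 fold changes -0.74 to -0.65, -0.43 to -0.40 and 0.32 to 0.49), and CCND3, CDKN1B and CDKN2C were not called under any. CDKN1A lost its call without the filter on low values (limma adjusted p = 0.061) and without single libraries, as given with its values. Members called higher were therefore 1 in place of 2 without the filter; at a filter of 5 FPKM they were also 1, since CDK6 was not tested there. Leaving out 1 library gave 1 to 2 members higher, 14 to 20 genes of the pathway list called (22 with all libraries) and 3 to 8 of them higher (7 with all libraries); the lowest counts of the pathway list came without mimic replicate 1 or 2 or scramble replicate 1. Of the pathway list 4 were called higher without the filter and 4 at a filter of 5 FPKM, which tests fewer genes with low values. On the TPM scale FOXM1, LIN52, RBBP4 and RBL1 lost their call (limma adjusted p 0.054 to 0.117), and without the filter RB1, RBL1, FOXM1 and LIN52 (0.069 to 0.149); without the variance trend RBL1 and LIN52 did (0.052 and 0.053). Calls were gained by CDC25A with the replicate block (0.035) and with library quality weights (0.035), by CCNA2 with those weights (0.022) and after median centring (0.046), and by CCNH with voom (0.048), besides those given with the values. Genes without a call that changed sign when 1 library was left out were MDM2 (-0.081 to 0.017), MDM4 (-0.11 to 0.0034) and MNAT1 (-0.094 to 0.0015). Correlations of deviations were -0.06, 0.24 and 0.05 for same-numbered libraries and -0.27 to 0.23 for the others. With 3 libraries per group these values cannot settle whether the number pairs the libraries. With the number as a replicate block 4 members and 24 pathway genes were called. Depth does not limit the called members, which had at least 1792 reads per library.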
